A study of Mus musculus with 12 samples.

Results

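Aminoacyl-tRNA synthetases, the enzymes that join each amino acid to its transfer RNA (tRNA), were followed in RNA sequencing counts from mouse small intestine. The 36 genes were taken by name from a deposited table of 55421 gene identifiers, 20 for cytosolic enzymes or subunits and 16 for mitochondrial enzymes. All 36 were found under their older or newer symbols, and all 36 were among the 17394 genes with enough counts to be tested, with 88 counts as the lowest of any synthetase gene in any library. There were 3 groups of 4 libraries. The Apc Eif3h group had floxed alleles of both Apc and Eif3h together with VilCreER, in which the villin promoter, active in gut epithelium, drives a Cre recombinase that tamoxifen switches on, and is labelled day 4. The Apc group had VilCreER and floxed Apc alone, also at day 4, and the WT group is labelled wild type at day 7. The labels do not say whether WT mice carried Cre. Tamoxifen is described for all samples as 2 intraperitoneal doses of 80 mg/kg given 24 hours apart. That text has tissue collected after 7 days in every group, against day 4 on the labels of the Apc Eif3h and Apc samples, so in comparisons with WT genotype and day cannot be told apart. The 4 Apc Eif3h libraries came from males, and the Apc and WT groups each had 3 males and 1 female. By these sexes the Apc and WT groups each held more than 1 animal, but nothing in the labels ties each replicate to its own animal. The p-values here therefore reflect the spread between libraries, which may be biological or technical.

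Each synthetase activates its amino acid with ATP and transfers it to the matching tRNA, and the charged tRNAs feed either the cytosolic ribosome or the separate ribosome inside mitochondria. The cytosolic enzymes and the mitochondrial enzymes are mostly encoded by different nuclear genes, with a "2" at the end of the mitochondrial symbol; Gars and Kars supply both compartments. Some cytosolic enzymes sit in a large multi-synthetase complex, and many cytosolic synthetase genes are known targets of ATF4, the transcription factor of the amino acid response. Apc restrains Wnt signalling, whose activation in gut epithelium drives crypt-like proliferation, and Eif3h encodes a subunit of the translation initiation factor eIF3.

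Library totals were 14221414 to 21298301 counts in Apc Eif3h, 10483112 to 18621953 in Apc and 13915889 to 14589963 in WT. Levels are given as CPM, counts scaled to library size after TMM scaling, and all library values are in the order of replicates 1 to 4. Eif3h was at 28.3, 43.1, 54.6 and 25.9 CPM in Apc Eif3h libraries, against 168, 164, 158 and 175 CPM in Apc libraries and 142, 126, 134 and 135 CPM in WT libraries. No Apc Eif3h library reached the level of any Apc or WT library (log2 fold change against Apc -2.13, SE 0.19, edgeR quasi-likelihood adjusted p = 0.000405). Apc transcripts were at 105 ± 12.01, 114 ± 6.96 and 94.2 ± 5.02 CPM in Apc Eif3h, Apc and WT (SD, n = 4 each), a count over the whole gene that can miss a deleted exon. In Apc against WT these transcripts were higher, without overlap of libraries (log2 fold change 0.28, SE 0.09, adjusted p = 0.0177), so the counts do not show the loss of Apc that the labels give. Epithelial markers were high in all libraries, with 12 of 12 detected. Their summed levels were 15792 to 25168 CPM in Apc Eif3h, 14154 to 21164 in Apc and 26592 to 36170 in WT. All 12 had negative log2 fold changes in Apc against WT (median -0.62), and 6 were called lower there. In Apc Eif3h against WT 7 were called lower (median -0.48). Pancreatic acinar markers, from a tissue that makes much synthetase RNA, summed to 8.82 to 12.2, 8.92 to 14.6 and 10.54 to 12.2 CPM in the same groups, with Prss1 and Amy2b at 0 throughout. The 10 T and cytotoxic lymphocyte markers summed to 80.2 to 129.7 CPM in Apc and 163 to 496 CPM in WT and were all lower in Apc. Apc Eif3h replicate 2 lay apart on the second principal component and held 1529 CPM of B and plasma cell markers, against 309 to 450 CPM in the other Apc Eif3h libraries. Those markers were also high in Apc replicate 3, at 947 CPM against 356 to 497 CPM in the other Apc libraries, and in WT replicate 1, at 2767 CPM against 816 to 921 CPM in the other WT libraries. WT replicate 1 also had the highest macrophage and neutrophil sum, 679 CPM against 235 to 433 CPM in the other WT libraries. Paneth cell markers summed to 6652 CPM in Apc Eif3h replicate 1 and 1234 to 2671 CPM in the other Apc Eif3h libraries, against 4248 to 8944 CPM in Apc and 1089 to 6850 CPM in WT. All 8 had negative log2 fold changes in Apc Eif3h against Apc (median -1.12), where edgeR called 0 lower, with 3 at an unadjusted p below 0.05 and 1 by DESeq2, and 3 were higher in Apc against WT. Fibroblast markers summed to 567 to 756 CPM in Apc Eif3h, 766 to 1284 CPM in Apc and 902 to 1854 CPM in WT. Of these 8, 7 were lower in Apc Eif3h against WT and 3 in Apc against WT. In Apc Eif3h against Apc edgeR called 0 lower (median -0.54), with 6 at an unadjusted p below 0.05 and 2 by DESeq2. Of all genes tested, 24.1% were lower and 27.7% higher in Apc against WT. The share lower was 28.1% in Apc Eif3h against WT and 2.78% in Apc Eif3h against Apc. In lists this short, 3 of 8 called in Apc against WT does not set the fibroblast or Paneth cell markers apart. The part of these cells in the synthetase levels was not tested. In whole tissue, fewer cells of a type and less RNA per cell cannot be told apart.

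The median cytosolic synthetase transcript was more abundant than the median mitochondrial one, although the classes overlapped. Per kb of merged exons, the median level of the 20 cytosolic genes was 25.0 ± 3.33 CPM per kb in Apc Eif3h, 20.4 ± 2.13 in Apc and 12.2 ± 1.14 in WT (mean and SD of the medians of 4 libraries). The 16 mitochondrial genes had medians of 6.43 ± 0.26, 5.90 ± 0.43 and 3.84 ± 0.37 CPM per kb in the same groups. Lars2, the mitochondrial leucine enzyme, had the highest mean level per length of all 36 in each group, at 139.7 ± 21.4, 178 ± 11.5 and 196 ± 34.9 CPM per kb in Apc Eif3h, Apc and WT (SD, n = 4 each). In WT the next was Nars, for asparagine, at 53.5 ± 7.65 CPM per kb. Rars (arginine), Qars (glutamine) and Gars (glycine) followed at 30.2 ± 2.36, 29.5 ± 1.48 and 27.8 ± 2.48 CPM per kb. By this length the libraries of that trio overlapped. The mitochondrial Rars2, for arginine, stood at rank 11 of 36 in WT, at 14.8 to 17.7 CPM per kb. The cytosolic Eprs and Cars stood at ranks 27 and 28, at 3.89 ± 0.32 and 3.78 ± 0.32 CPM per kb. Such ranks depend on the length used. Merged exons come to 18102 bases in Eprs and 6572 in Qars, and the longest transcripts to 5638 and 3066. Single genes were not ranked by longest transcript. Mars2, the mitochondrial methionine enzyme, was lowest in WT, at 1.14 ± 0.23 CPM per kb. The order differed in the mutant groups: Gars was second in both, at 95.6 ± 10.2 CPM per kb in Apc Eif3h and 79.3 ± 3.30 in Apc.

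**Figure D1:**
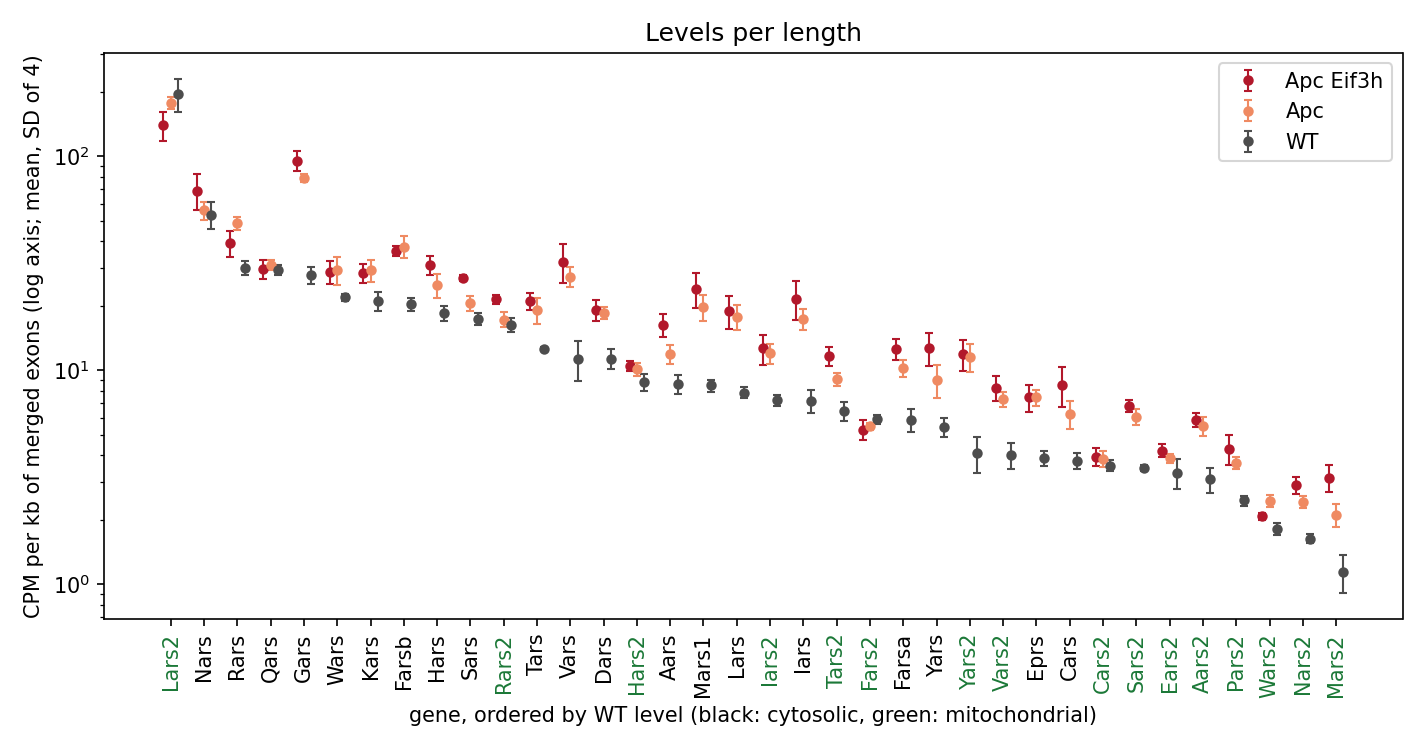
Levels of the 36 synthetase genes as CPM per kb of merged exons on a log axis, ordered from left to right by the WT mean, with points at the mean and bars of 1 SD over the 4 libraries of each group. Lars2 stands above all others, and Gars, at 95.6 and 79.3 CPM per kb in Apc Eif3h and Apc, is second to Lars2 there, against 27.8 CPM per kb in WT.

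Summed within each library, the 20 cytosolic genes held 2618 ± 309 CPM in Apc Eif3h, 2339 ± 209.6 CPM in Apc and 1499 ± 54.7 CPM in WT (SD, n = 4 each). The 15 mitochondrial genes other than Lars2 held 592 ± 47.8, 529 ± 34.7 and 372 ± 20.8 CPM in the same groups. In both sums every Apc Eif3h and Apc library lay above every WT library. Lars2 had the reverse order of means, at 1549 ± 237, 1975 ± 127 and 2172 ± 387 CPM. It made up most of the mitochondrial sum, so the 16 mitochondrial genes together were at 2142 ± 249 CPM in Apc Eif3h, 2504 ± 148 CPM in Apc and 2544 ± 367 CPM in WT, with overlapping libraries.

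**Figure D2:**
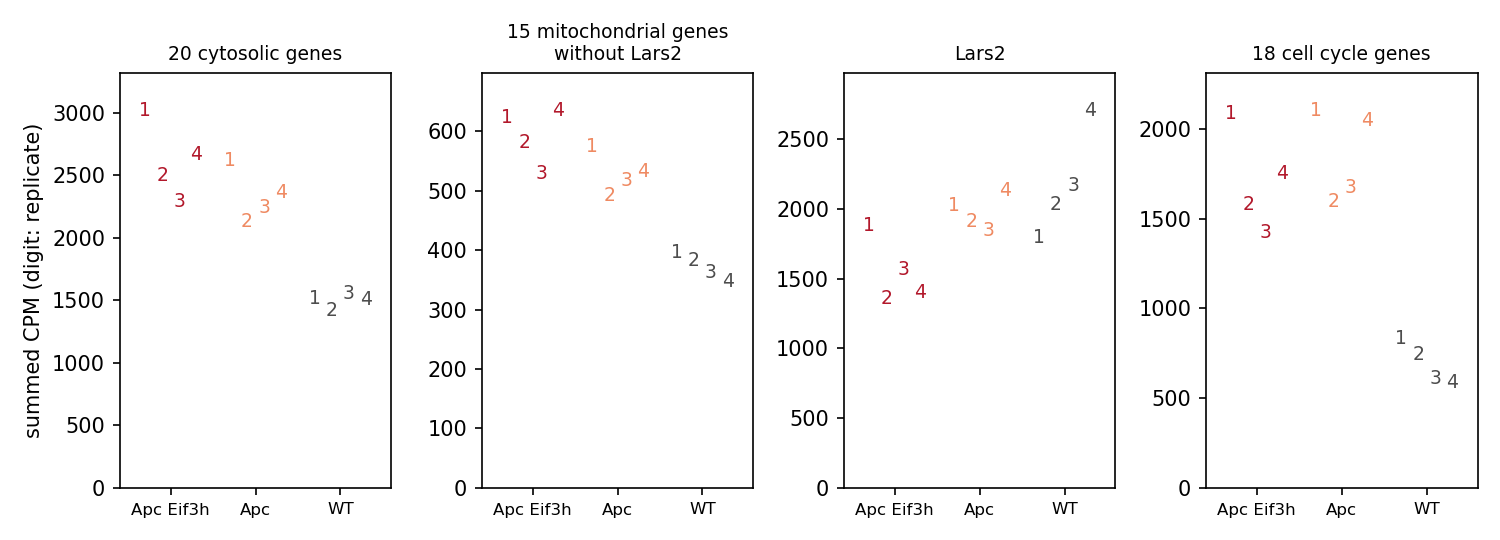
Summed CPM per library for the 20 cytosolic genes, the 15 mitochondrial genes without Lars2, Lars2 alone and 18 cell cycle genes; each digit is a library's replicate number and each panel has its own axis from 0. Cytosolic, mitochondrial and cell cycle sums are higher in every Apc Eif3h and Apc library than in any WT library, and Lars2 is not.

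In Apc against WT, 18 of the 20 cytosolic genes were higher and 0 were lower at an adjusted p below 0.05, with a median log2 fold change of 0.72 and a range of 0.06 to 1.51. Of all 17394 genes 51.8% were called in this comparison, 27.7% higher and 24.1% lower, and the median over all genes was -0.01. Of the 16 mitochondrial genes 10 were higher and 0 lower, with a median of 0.53 (0.57 without Lars2) and a range of -0.14 to 1.50. No synthetase gene was lower in edgeR at an unadjusted p below 0.05 either (0 of 36), and DESeq2 called 0 lower. Without WT replicate 1, the WT library with the most B cell markers, 17 cytosolic and 10 mitochondrial genes were higher. Libraries of the groups did not overlap for 27 of the 28 called genes, the exception being Sars. That count was not made over all called genes, so it does not set the synthetase genes apart. With library totals as the only scaling, the median of all genes moved to 0.22, and 74.0% of the calls were higher in place of 53.5%. The class medians then were 0.95 and 0.76, each still above the median of all genes.

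Glycyl-tRNA synthetase, encoded by Gars (GRCm38 chr6:55038007-55079500, plus strand), rose most. It was at 259, 238, 239.9 and 252 CPM in Apc libraries and 79.9, 80.3, 95.2 and 91.2 CPM in WT libraries, a 2.85-fold difference (log2 fold change 1.51, SE 0.09, adjusted p = 1.35e-06). The lowest Apc library lay far above the highest WT library. Vars, for valine, was at 171, 133, 151 and 161 CPM in Apc and 83.5, 59.2, 58.1 and 53.5 CPM in WT (1.27, SE 0.17, adjusted p = 9.37e-05), with WT replicate 1 the highest of its group. Iars, for isoleucine, was at 103, 78.7, 94.9 and 88.7 CPM in Apc and 41.8, 41.9, 35.7 and 32.5 CPM in WT (1.27, SE 0.15, adjusted p = 3.82e-05). Both were separated between groups without overlap.

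Mars1, which charges the initiator tRNA with methionine as well as the elongator, was at 78.2, 56.0, 64.3 and 71.2 CPM in Apc and 29.2, 30.8, 26.5 and 29.8 CPM in WT (log2 fold change 1.21, SE 0.14, adjusted p = 3.4e-05). Lars, the leucine enzyme that also acts as a leucine sensor upstream of mTORC1, was at 107, 77.3, 99.5 and 98.2 CPM in Apc and 44.0, 44.9, 39.8 and 40.1 CPM in WT (1.18, SE 0.13, adjusted p = 2.87e-05). In both genes Apc replicate 2 was the lowest Apc library and still lay above all WT libraries. Eprs, a fused enzyme for glutamate and proline, and Farsb and Farsa, the subunits of the cytosolic phenylalanine enzyme, rose by 0.94, 0.89 and 0.80 on the log2 scale (SE 0.11, 0.09 and 0.11). The other cytosolic genes called higher ran from Yars (tyrosine) at 0.74, Cars (cysteine) at 0.72, Dars (aspartate) at 0.71, Rars at 0.69 and Tars (threonine) at 0.61 to Kars (lysine) at 0.47, Aars (alanine) at 0.46, Hars (histidine) at 0.43 and Wars (tryptophan) at 0.42. Sars, for serine, was the smallest call, at 113, 103, 94.8 and 113 CPM in Apc and 84.4, 84.7, 94.4 and 94.8 CPM in WT (0.24, SE 0.08, adjusted p = 0.0182). Its lowest Apc library equalled the highest WT library to within rounding, and its call was lost in males alone (adjusted p = 0.0612). It was also lost without Apc replicate 1 (0.0583) or 4 (0.0591) and without WT replicate 1 (0.0533) or 2 (0.0527).

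The cytosolic genes that were not called were Qars and Nars. Qars was at 219, 204, 199.6 and 194 CPM in Apc and 186, 187, 207 and 194 CPM in WT (log2 fold change 0.08, SE 0.08, adjusted p = 0.457). Nars was at 278, 222, 239.9 and 232 CPM in Apc and 212, 202, 275 and 243 CPM in WT (0.06, SE 0.14, adjusted p = 0.722). In each the groups overlapped, and both genes were among the 4 highest per length in WT. With library totals alone Qars passed the test (0.31, adjusted p = 0.00336).

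**Figure D3:**
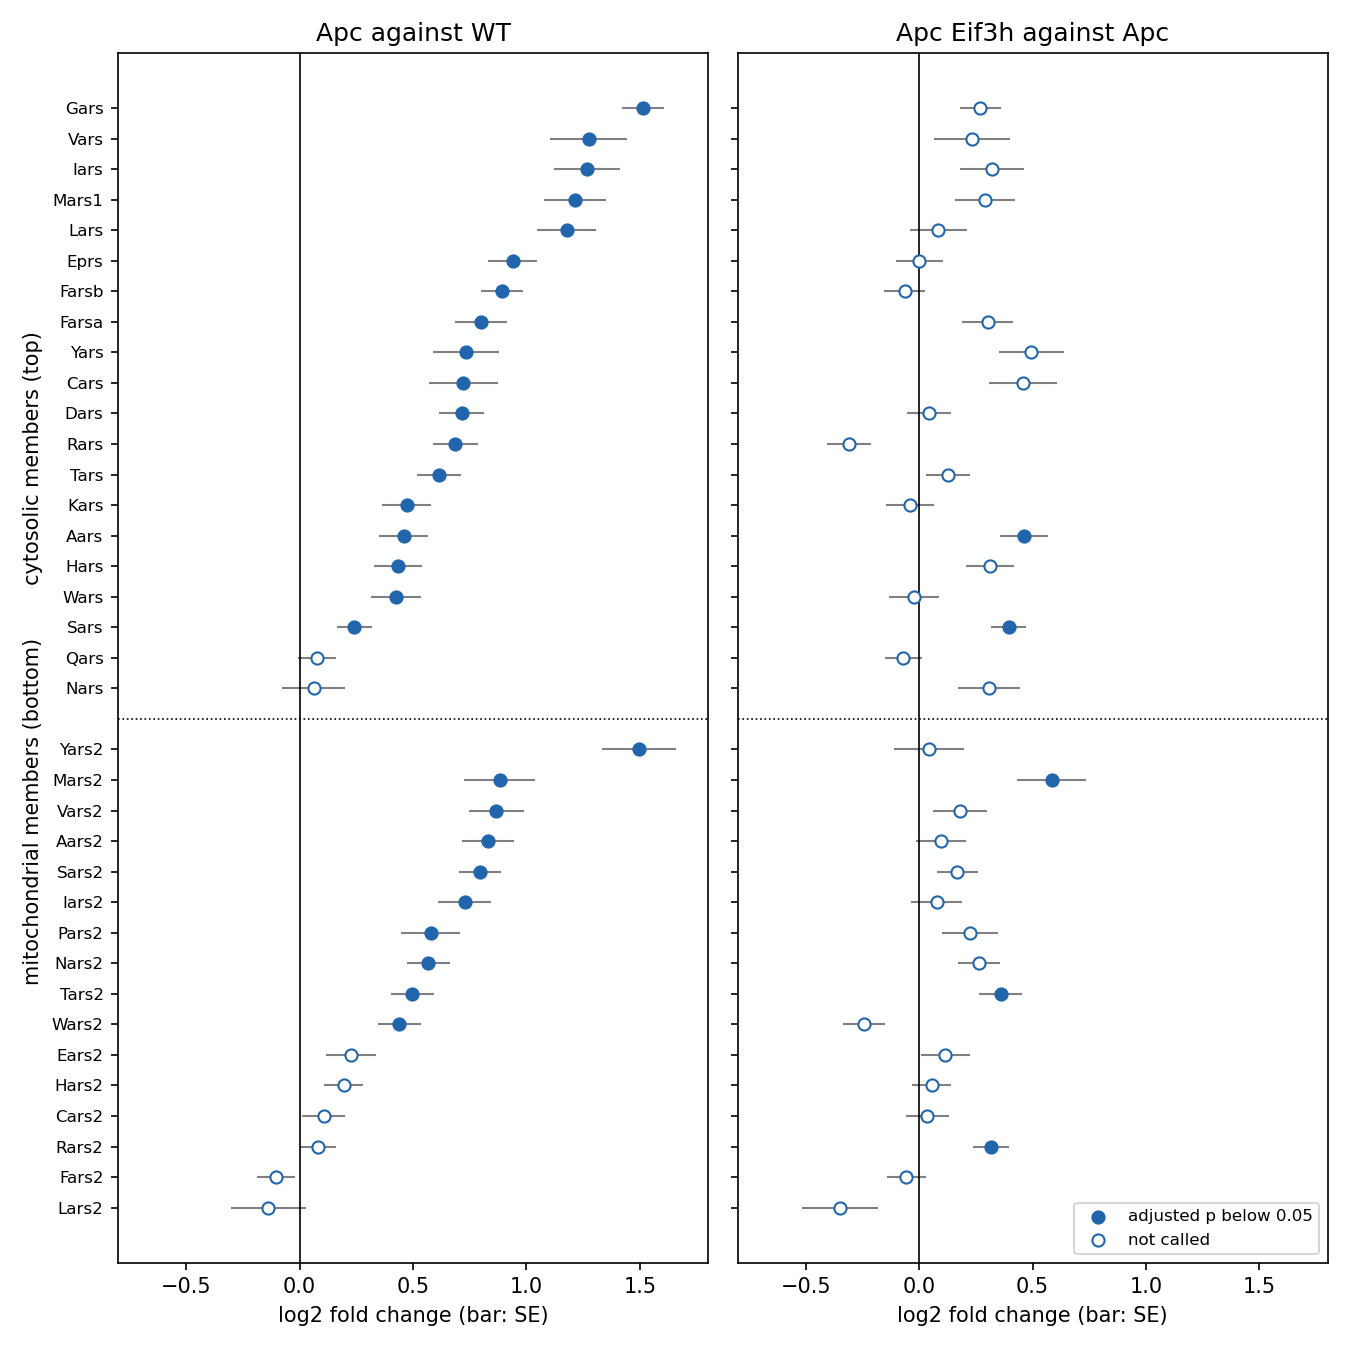
Log2 fold changes with SE bars for the 36 genes in Apc against WT (left) and Apc Eif3h against Apc (right), cytosolic genes above and mitochondrial genes below the dotted line, with filled points for an adjusted p below 0.05. On the left 28 points are filled, all to the right of 0, and on the right 5 are filled, Aars, Sars, Mars2, Tars2 and Rars2.

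Mitochondrial genes spread more widely in Apc against WT. Yars2, for tyrosine, was at 42.7, 31.8, 31.8 and 39.2 CPM in Apc libraries and 15.96, 12.8, 12.7 and 9.97 CPM in WT libraries (log2 fold change 1.50, SE 0.16, adjusted p = 2.81e-05), a difference as large as that of Gars. All Apc libraries lay above all WT libraries. Mars2, Vars2 (valine), Aars2 (alanine), Sars2 (serine) and Iars2 (isoleucine) rose by 0.88, 0.87, 0.83, 0.79 and 0.73 on the log2 scale, and Pars2 (proline), Nars2 (asparagine), Tars2 (threonine) and Wars2 (tryptophan) by 0.58, 0.57, 0.50 and 0.44. Ears2 (glutamate), Hars2 (histidine), Cars2 (cysteine) and Rars2 (arginine) were not called, with log2 fold changes of 0.23, 0.19, 0.11 and 0.08, but under scaling by library totals alone all 4 were called (adjusted p of 0.00534, 0.00463, 0.0234 and 0.010). Fars2, for phenylalanine, was at 32.1, 32.0, 29.7 and 32.1 CPM in Apc and 34.7, 33.8, 31.4 and 35.4 CPM in WT (-0.10, SE 0.08, adjusted p = 0.315). Lars2 was at 2025, 1906, 1840.4 and 2128 CPM in Apc and 1793, 2028, 2163 and 2705 CPM in WT (-0.14, SE 0.17, adjusted p = 0.507). Both overlapped between groups, and with library totals alone Lars2 was at 0.10.

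Set side by side by amino acid, 16 pairs of a cytosolic and a mitochondrial gene could be formed, with Eprs standing for both glutamate and proline and Farsa for phenylalanine. In Apc against WT both genes were higher in 9 pairs, the cytosolic gene alone in 6 and the mitochondrial gene alone in 1, the asparagine pair of Nars at 0.06 and Nars2 at 0.57. The cytosolic log2 fold change was the larger in 11 of 16 pairs, with a median difference of 0.35. The leucine pair differed by the most described here, with Lars at 1.18 and Lars2 at -0.14. Besides asparagine, the tyrosine, serine and alanine pairs went the other way. Yars2 was at 1.50 over Yars at 0.74, Sars2 at 0.79 over Sars at 0.24 and Aars2 at 0.83 over Aars at 0.46. In the tryptophan pair Wars2, at 0.44, was only slightly above Wars, at 0.42. The difference within a pair was not tested.

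By role, 7 of the 8 cytosolic genes of the multi-synthetase complex were higher in Apc against WT, with a median log2 fold change of 0.83 and Qars as the exception, and so were 11 of the 12 outside it, with a median of 0.67 and Nars as the exception. Of 12 cytosolic genes reported in mammalian cells as ATF4 targets 11 were higher, with a median of 0.73, and of the other 8 cytosolic genes 7 were, with a median of 0.70.

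**Figure D4:**
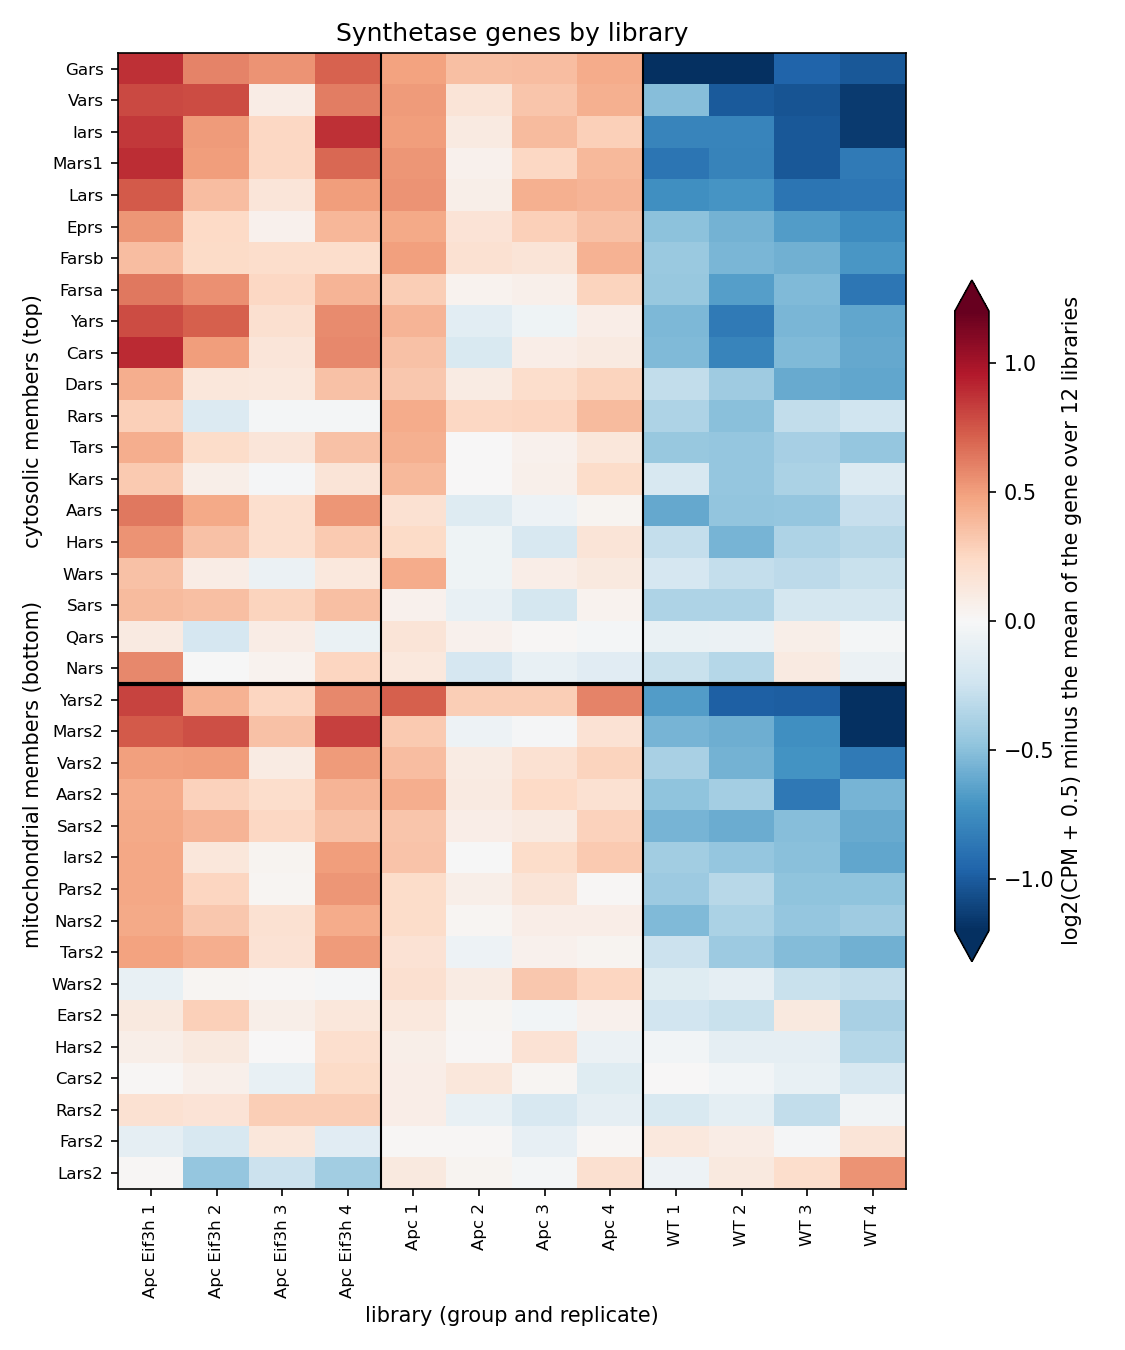
Log2(CPM + 0.5) of the 36 genes in each library, centred on the gene's mean over the 12 libraries, with cytosolic genes above and mitochondrial genes below the horizontal line; colours end at -1.2 and 1.2 and arrows on the scale mark values beyond. The WT columns are low for most genes. They are mixed or near 0 for genes such as Nars, Qars and Cars2, and mostly above 0 for Fars2 and Lars2. Apc Eif3h replicate 3 is paler than the other Apc Eif3h libraries for most cytosolic genes.

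The promoters of the synthetase genes were read for 3 motifs, both strands, in windows of 300 bases from 250 before to 50 after the start, from RefSeq on GRCm38.p6. Entries were present for 27 of the 36 genes, 13 cytosolic and 14 mitochondrial. A synthetase gene was counted if any of its entries matched, while the share of all promoters was taken over single entries, so the units differ. TGATGNAA is the core of the C/EBP-ATF response element that ATF4 binds with a C/EBP partner. It was found for 5 of the 13 cytosolic genes and 0 of the 14 mitochondrial genes, against 3.97% of all 32851 promoters in the table. CACGTG, the E-box that Myc binds, was found for 4 of 13 cytosolic genes (Aars, Farsb, Iars and Tars) and 1 of 14 mitochondrial genes (Ears2), against 7.15% of all. TGACGTCA, the cyclic AMP response element, was in 0 of 27, against 1.79% of all. Each motif was searched on its own, so matches of different motifs could overlap, and a match is only a run of letters. The 5 windows with TGATGNAA are printed because these 5 genes carry the motif found in cytosolic and not in mitochondrial windows, with that motif or its reverse complement in capitals, 5′ to 3′ on the gene's strand. They come from chr8:111033592-111033891 (Aars, plus strand), chr6:55037751-55038050 (Gars, plus), chr13:49681880-49682179 (Iars, plus), chr15:11399609-11399908 (Tars, minus) and chr4:129189653-129189952 (Yars, plus). Yars2, at chr16:16302715-16303014 (plus), is shown beside them as a gene that rose as much as Gars and whose window has none of the 3 motifs.
Aars: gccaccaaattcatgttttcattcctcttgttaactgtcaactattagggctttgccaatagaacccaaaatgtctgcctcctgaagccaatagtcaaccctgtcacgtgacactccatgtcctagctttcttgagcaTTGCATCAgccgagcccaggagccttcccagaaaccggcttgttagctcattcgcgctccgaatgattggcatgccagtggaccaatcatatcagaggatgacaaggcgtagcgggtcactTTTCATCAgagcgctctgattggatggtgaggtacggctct
Gars: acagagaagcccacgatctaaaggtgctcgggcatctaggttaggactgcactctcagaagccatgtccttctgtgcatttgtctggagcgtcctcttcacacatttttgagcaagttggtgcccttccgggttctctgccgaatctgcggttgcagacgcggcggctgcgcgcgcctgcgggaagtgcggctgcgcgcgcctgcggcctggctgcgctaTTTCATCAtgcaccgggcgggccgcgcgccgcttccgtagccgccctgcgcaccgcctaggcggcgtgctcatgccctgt
Iars: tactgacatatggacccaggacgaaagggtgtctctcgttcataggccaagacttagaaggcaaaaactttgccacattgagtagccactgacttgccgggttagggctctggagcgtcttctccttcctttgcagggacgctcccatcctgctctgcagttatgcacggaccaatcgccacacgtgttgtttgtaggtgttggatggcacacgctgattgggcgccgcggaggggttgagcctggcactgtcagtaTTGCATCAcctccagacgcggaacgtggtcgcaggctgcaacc
Tars: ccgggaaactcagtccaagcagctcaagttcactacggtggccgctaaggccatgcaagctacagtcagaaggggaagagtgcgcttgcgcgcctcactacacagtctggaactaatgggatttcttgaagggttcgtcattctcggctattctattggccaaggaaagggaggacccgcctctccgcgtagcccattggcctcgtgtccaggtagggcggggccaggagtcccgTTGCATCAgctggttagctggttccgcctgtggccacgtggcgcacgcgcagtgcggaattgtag
Yars: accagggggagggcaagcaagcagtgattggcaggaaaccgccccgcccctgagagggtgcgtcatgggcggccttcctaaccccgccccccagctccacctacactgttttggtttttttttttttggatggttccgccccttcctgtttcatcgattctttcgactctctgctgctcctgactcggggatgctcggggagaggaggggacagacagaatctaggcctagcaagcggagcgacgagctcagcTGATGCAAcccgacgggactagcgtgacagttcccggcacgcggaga
Yars2: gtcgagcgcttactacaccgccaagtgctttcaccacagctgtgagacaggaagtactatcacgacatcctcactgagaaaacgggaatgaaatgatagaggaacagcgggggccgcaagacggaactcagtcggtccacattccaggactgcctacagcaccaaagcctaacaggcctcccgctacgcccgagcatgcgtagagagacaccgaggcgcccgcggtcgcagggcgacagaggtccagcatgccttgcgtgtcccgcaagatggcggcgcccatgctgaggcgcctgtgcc
Counted from the start site, the matches lie at -112 and 9 in Aars, -30 in Gars, 7 in Iars, -15 in Tars and 3 in Yars, by the leftmost base on the gene's strand. In Apc against WT the log2 fold changes of these 5 genes were 0.46, 1.51, 1.27, 0.61 and 0.74, and that of Yars2 was 1.50.

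Between the mutant groups few synthetase genes passed the test, though most had positive log2 fold changes. In Apc Eif3h against Apc, which shares the Apc libraries with the comparison above, 2 of 20 cytosolic genes were higher (Aars and Sars) and 0 lower, with a median log2 fold change of 0.25, and 3 of 16 mitochondrial genes were higher (Mars2, Tars2 and Rars2) and 0 lower, with a median of 0.11. Of all genes tested 7.05% were called, 4.27% higher and 2.78% lower, and their median was 0.00. At an unadjusted p below 0.05 in edgeR 1 cytosolic and 1 mitochondrial gene were lower, and DESeq2 called 0 lower. The 5 of 36 synthetase genes called higher were a larger share than the 4.27% of all genes, and log2 fold changes were above 0 for 28 of the 36. Missing the threshold does not show that a gene was unchanged. Without Apc Eif3h replicate 2, the library with the B cell markers, 1 cytosolic gene (Sars) and 0 mitochondrial genes were called higher, and the same counts came without Apc Eif3h replicate 1 or 4 and without Apc replicate 2, 3 or 4. Without Apc Eif3h replicate 3 the counts were 7 and 4.

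Aars was at 170.2, 150.3, 126 and 159 CPM in Apc Eif3h libraries and 125, 98.6, 105 and 112 CPM in Apc libraries (log2 fold change 0.46, SE 0.11, adjusted p = 0.0247). Sars was at 143, 141, 132 and 140.4 CPM in Apc Eif3h and 113, 103, 94.8 and 113 CPM in Apc (0.39, SE 0.08, adjusted p = 0.011). Every Apc Eif3h library lay above every Apc library in both genes, narrowly in Aars. Sars alone among the 5 kept its call under all alternatives run, and Aars kept its call in 9 of 16. Yars was at 86.8, 82.8, 57.5 and 74.8 CPM in Apc Eif3h and 67.1, 46.1, 48.4 and 53.0 CPM in Apc (0.49, SE 0.14, adjusted p = 0.0557). Its groups overlapped through Apc replicate 1, the highest Apc library, and Apc Eif3h replicate 3, the lowest of its group, and without either it passed the test (0.0291 and 0.0117). Cars and Gars had log2 fold changes of 0.46 and 0.27 (adjusted p = 0.084 and 0.0924), and Gars libraries did not overlap, at 341, 279.6, 269.7 and 302 CPM in Apc Eif3h against 238 to 259 CPM in Apc.

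Mars2 was at 36.8, 37.9, 28.2 and 39.2 CPM in Apc Eif3h and 27.4, 21.01, 21.8 and 24.8 CPM in Apc, the largest log2 fold change of the 36 (0.58, SE 0.15, adjusted p = 0.0384). Rars2 was at 57.4, 56.6, 62.05 and 61.7 CPM in Apc Eif3h and 53.3, 47.2, 44.1 and 46.6 CPM in Apc (0.32, SE 0.08, adjusted p = 0.0341). Neither overlapped between groups. Tars2 was at 84.9, 82.2, 68.5 and 86.6 CPM in Apc Eif3h and 68.6, 58.1, 62.8 and 62.0 CPM in Apc (0.36, SE 0.09, adjusted p = 0.0411), where Apc Eif3h replicate 3 and Apc replicate 1 met. Each of these 3 calls was lost under most of the 16 alternatives, and was kept in 6 for Mars2, 7 for Rars2 and 4 for Tars2. Library totals were among those that lost all 3 (adjusted p = 0.0863 for Mars2, 0.0782 for Rars2 and 0.126 for Tars2).

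Negative values were rarer and none was called. Rars was at 151, 111, 123 and 122 CPM in Apc Eif3h and 169, 148, 149 and 161 CPM in Apc (log2 fold change -0.31, SE 0.10, adjusted p = 0.0791). Apc Eif3h replicate 1 alone reached the Apc range, and without it the call was made (-0.41, adjusted p = 0.0292). Wars2 was at 11.7, 12.7, 12.5 and 12.3 CPM in Apc Eif3h and 14.2, 13.4, 15.7 and 14.9 CPM in Apc (-0.24, SE 0.09, adjusted p = 0.137), with every Apc Eif3h library below every Apc library. Lars2 was at 1879, 1357, 1563 and 1399 CPM in Apc Eif3h and 2025, 1906, 1840.4 and 2128 CPM in Apc (-0.35, SE 0.17, adjusted p = 0.227), with replicate 1 of Apc Eif3h inside the Apc range.

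**Figure D5:**
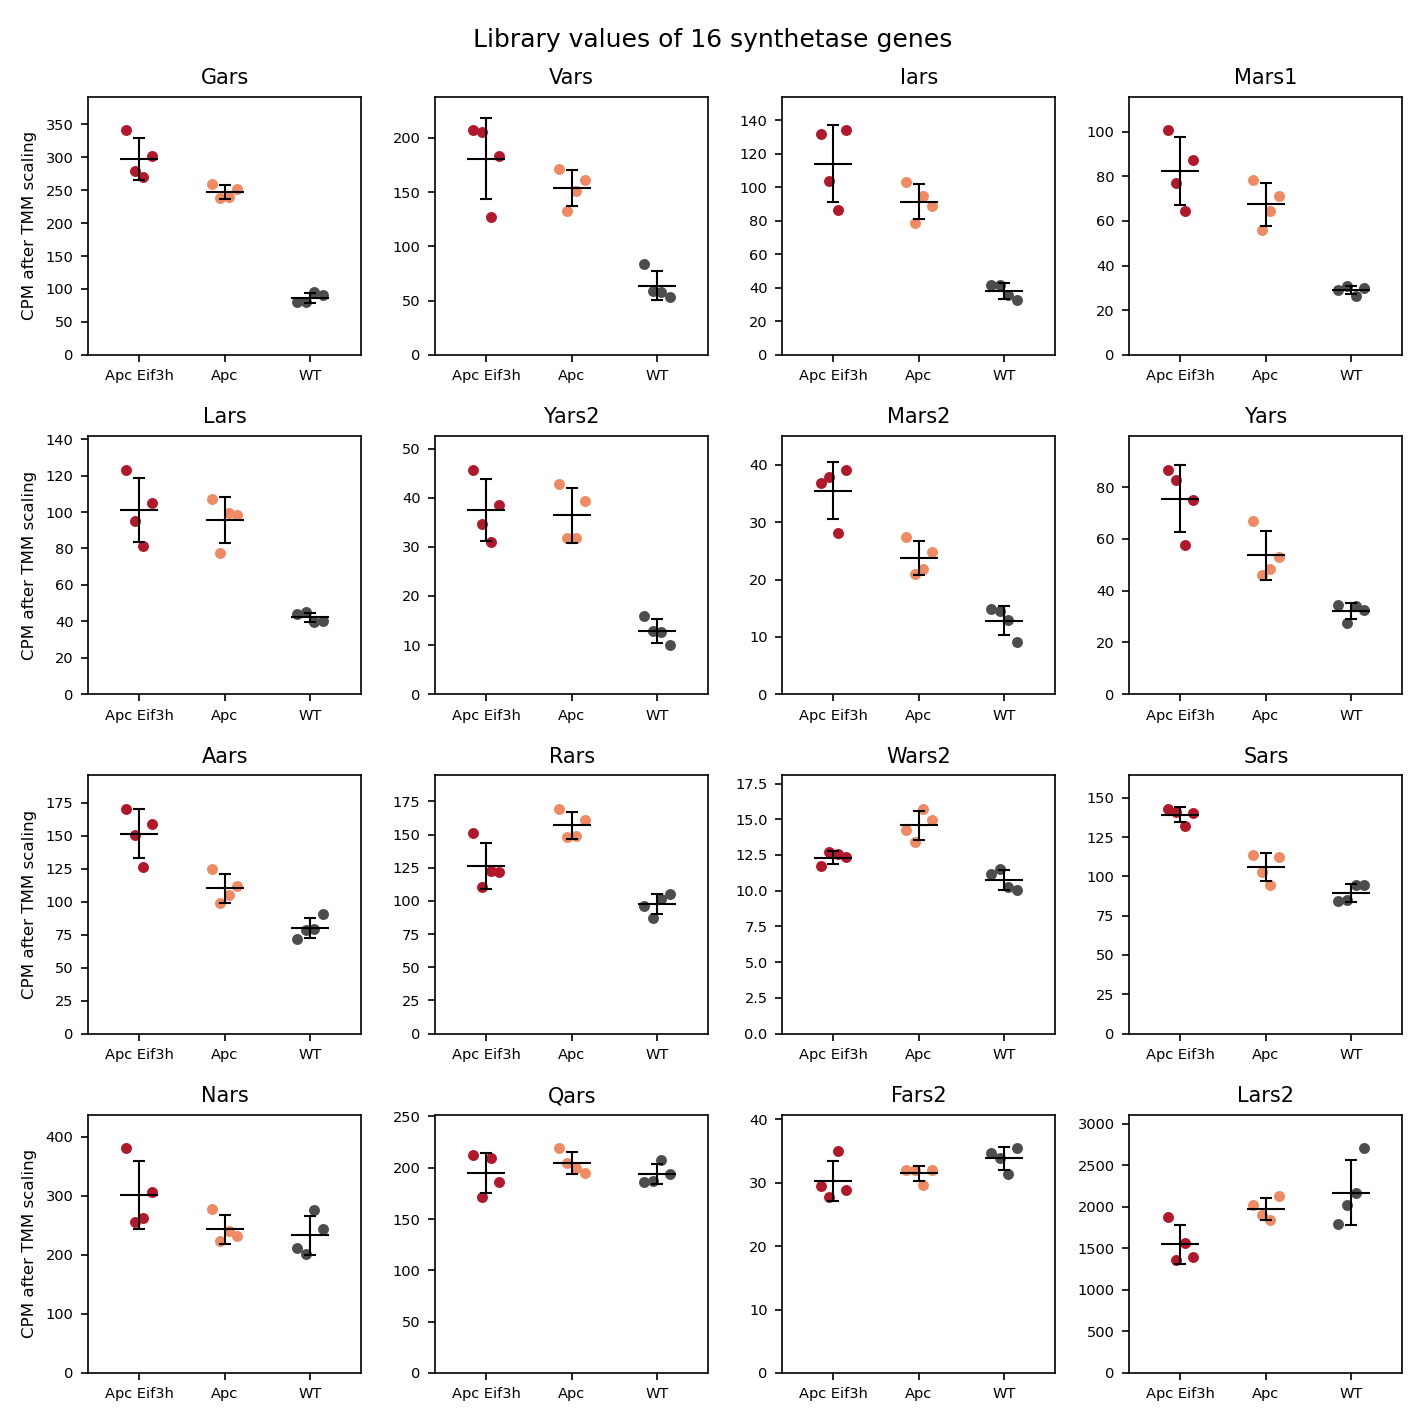
CPM after TMM scaling of 16 synthetase genes in each library, with the mean as a line and 1 SD as bars for each group of 4, and a separate axis from 0 for each gene. Gars, Vars, Iars, Mars1, Lars and Yars2 are separated from WT in both mutant groups, Aars, Sars and Mars2 step up again in Apc Eif3h, and Rars, Wars2 and Lars2 have lower means in Apc Eif3h than in Apc.

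By role, edgeR called 0 of the 8 complex genes in Apc Eif3h against Apc (2 were higher and 1 lower at an unadjusted p below 0.05, and DESeq2 called 0), with a median log2 fold change of 0.02, and 2 of the 12 cytosolic genes outside the complex were, with a median of 0.30. The 12 reported ATF4 targets had 2 calls and a median of 0.30, and the other 8 cytosolic genes had 0 calls and a median of 0.00 (again 2 higher and 1 lower before adjustment, and 0 by DESeq2). These splits overlap and were not tested. Among the amino acid pairs, the cytosolic gene alone was called in 2, the mitochondrial gene alone in 3 and neither in 11.

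Against WT, a comparison that shares libraries with both of those above, 19 of 20 cytosolic genes were higher in Apc Eif3h and 0 lower (median log2 fold change 0.87), and 12 of 16 mitochondrial genes were higher and 1 lower (median 0.80). No cytosolic gene was lower at an unadjusted p below 0.05 in edgeR, and DESeq2 called 0 lower. Without Apc Eif3h replicate 2 the counts were 19 and 12 higher and 0 lower, and without WT replicate 1 they were 18 and 12 higher and 0 and 1 lower. Of all genes 57.8% were called, 29.8% higher and 28.1% lower, with a median of -0.03. With library totals alone the median of all genes was 0.17, the class medians were 1.08 and 1.0, and 67.5% of calls were higher in place of 51.5%. Gars was at 341, 279.6, 269.7 and 302 CPM in Apc Eif3h, against 79.9, 80.3, 95.2 and 91.2 CPM in WT, a 3.44-fold difference (1.78, SE 0.09, adjusted p = 9.44e-07). Iars was at 132, 104, 86.4 and 134 CPM in Apc Eif3h, against 41.8, 41.9, 35.7 and 32.5 CPM in WT (1.59, SE 0.15, adjusted p = 5.95e-06). The groups were far apart in both. Fars2 was at 29.4, 27.8, 35.0 and 28.9 CPM in Apc Eif3h, against 34.7, 33.8, 31.4 and 35.4 CPM in WT (-0.16, SE 0.08, adjusted p = 0.121). Lars2 was the gene called lower, at 1879, 1357, 1563 and 1399 CPM in Apc Eif3h and 1793, 2028, 2163 and 2705 CPM in WT (-0.49, SE 0.17, adjusted p = 0.0241). Replicate 1 of Apc Eif3h lay above WT replicate 1, and the call was lost under several alternatives, among them library totals (adjusted p = 0.109), the groups fitted alone (0.0676) and leaving out WT replicate 4 (0.0771).

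Of other genes, only the annotated gene Gm15564 was aligned to Lars2 here. A run of 72 bases of the Lars2 transcript matched it at 98.6% identity, at bases 3278 to 3349 of a 3894-base transcript. Gm15564, named here after its values were seen, was at 39.5 to 71.7, 55.6 to 73.1 and 50.7 to 93.3 CPM in Apc Eif3h, Apc and WT, or 2.83% to 3.81% of the Lars2 level in the 12 libraries. The mitochondrially encoded 16S ribosomal RNA, mt-Rnr2, also named after its values were seen, was at 815 to 1044 CPM in Apc Eif3h, 584 to 831 CPM in Apc and 1065 to 1609 CPM in WT, and fell by 0.90 on the log2 scale in Apc against WT (SE 0.16, adjusted p = 0.000612). Lars2 was not aligned to mt-Rnr2 here, and the part of Gm15564 or mt-Rnr2 in the Lars2 level was not tested. Other synthetase genes share short windows with neighbours. Of all 36-base windows in Iars2, 23.2% also occur in another annotated gene (mostly Rab3gap2). The shares were 14.2% in Aars (mostly with Exosc6), 12.3% in Iars (mostly with Gm4849) and 0.626% in Lars2. The shared Lars2 windows occur in 28 other genes, with the largest share in Gm47414. How the counting treated such reads, and whether it used strand, is not given in the sources used here.

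Apc Eif3h replicate 3 was the lowest of its group for 17 of the 20 cytosolic and 12 of the 16 mitochondrial genes, with a cytosolic sum of 2290.2 CPM against 2496 to 3020 CPM in the others. The same library had the highest Eif3h level of its group (54.6 CPM), the highest epithelial marker sum (25168 CPM) and the lowest cell cycle sum (1423 CPM). Replicate 1 was the highest of its group in both Apc Eif3h and Apc for the cytosolic sum, at 3020 and 2618 CPM, and for the cell cycle sum, at 2086 and 2104 CPM. It was the highest Apc Eif3h library for 19 of the 20 cytosolic genes and the highest Apc library for 20 of 20. Apc replicate 1 was the female and the shallowest library of its group (10483112 counts), and without it Apc against WT still had 17 cytosolic and 10 mitochondrial genes higher. Cell cycle genes were higher in Apc against WT for 18 of 18 (median log2 fold change 1.46) and in Apc Eif3h against Apc for 0 of 18 by edgeR (median -0.12), with 0 higher and 2 lower at an unadjusted p below 0.05 and 0 by DESeq2. Their part in the synthetase levels was not tested.

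Genes that work with the synthetases were also called in Apc against WT. Beside the lists that follow stand the shares of all genes, 27.7% higher and 24.1% lower in that comparison. In Apc Eif3h against Apc these shares were 4.27% and 2.78%. Of 16 complex scaffolds and other aminoacylation partners 11 were higher and 1 lower in Apc against WT (median log2 fold change 0.41). Eef1e1, a scaffold of the multi-synthetase complex, was at 1.22 (SE 0.11, adjusted p = 1.24e-05), Dtd1, which removes D-amino acids from tRNA, at 1.01 and Qrsl1, a subunit of the mitochondrial transamidase that makes glutaminyl-tRNA, at 0.50. The gene called lower was Sepsecs, which makes selenocysteinyl-tRNA. None of the 16 was called in Apc Eif3h against Apc by edgeR (median 0.16), where 3 were higher at an unadjusted p below 0.05, or by DESeq2.

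Of 40 tested genes of tRNA processing and modification 34 were higher and 2 lower (Elac1 and Dus2) in Apc against WT (median 0.83). The 3 smallest p belonged to Trit1, which modifies adenosine beside the anticodon, at 1.33, Dus1l, a dihydrouridine synthase, at 0.78 and Nsun2, a cytosine methyltransferase, at 1.23. Apc Eif3h against Apc had 4 higher, Trmt1 at 0.61, Rpp14 at 0.59, Pop5 at 0.47 and Rpp21 at 0.35, the last 3 being subunits of RNase P or MRP, and Trit1 was lower at -0.41. Of 21 genes of RNA polymerase III, which transcribes tRNA genes, 17 were higher and 2 lower in Apc against WT (median 0.37), with Polr3e at 0.89 as the smallest p. The genes called lower were Maf1, the repressor of that polymerase, and Polr3gl. Polr3c alone was called in Apc Eif3h against Apc, at 0.29, and 1 of 21 is near the 4.27% of all genes called higher there.

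On the mitochondrial side, 8 of 12 translation factors and related genes were higher and 0 lower in Apc against WT (median 0.38). Tufm, the elongation factor that delivers charged tRNA to the mitochondrial ribosome, was at 0.51, Tsfm at 0.71 and Ptcd3 at 0.80. Of 77 mitochondrial ribosomal protein genes 47 were higher and 1 lower, Mrpl27 (median 0.28). The genes called in Apc Eif3h against Apc were Mtrf1, a release factor, at 0.63 and 7 ribosomal protein genes, led by Mrps7 at 0.42, where DESeq2 called 15 and 30 were higher at an unadjusted p below 0.05. In either list 0 were lower by edgeR, at an unadjusted p below 0.05 or by DESeq2.

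The amino acid response list held genes called higher and genes called lower in both comparisons. There were 5 of 24 genes higher and 1 lower in Apc Eif3h against Apc (median 0.41), while DESeq2 called 10 higher and 14 were higher at an unadjusted p below 0.05. Atf5 was at 1.37 (SE 0.16, adjusted p = 0.00167) and Atf4, whose translation is raised by eIF2 phosphorylation, at 0.83 (SE 0.10, adjusted p = 0.00172), followed by Psph at 0.85, Mthfd2 at 0.76 and Ddit3 at 0.70, and Ddit4 was lower at -0.77. In Apc against WT 12 were higher and 5 lower (median 0.53), with Phgdh, of serine synthesis, at 2.94, Slc7a5, a leucine transporter, at 2.49 and Ddit4 at 1.59. The 5 lower genes were Slc3a2, the partner chain of that transporter, with Trib3, Cebpg, Aldh18a1 and Ddit3. Those 5 of 24 were a smaller share than the 24.1% of all genes called lower, and the 12 higher a larger share than 27.7%. Wars, which interferon gamma induces in human and mouse cells, rose by 0.42 in Apc against WT (SE 0.11, adjusted p = 0.00651), where 0 of 18 interferon gamma response genes were higher by edgeR, at an unadjusted p below 0.05 or by DESeq2, and 14 were lower (median -0.99), and was at -0.02 in Apc Eif3h against Apc (adjusted p = 0.919), where Cxcl10 alone of that list was called, at 1.87.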

How the data were processed

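RNA from small intestine was extracted with a column kit and, per the labels' protocols, sequenced with 36 cycles from each end of a TruSeq library. Raw counts per gene were deposited by the authors. HISAT2 2.1.0, featureCounts 1.6.4, Trim Galore 0.6.4 and FastQC 0.11.8 are the tools, and GRCm38 the build, in the submitters' processing notes. Symbols and coordinates came from GENCODE M21 (GRCm38), which matched 55240 of 55421 identifiers and all 36 synthetase genes; the unmatched ones held 0.00226% of counts.

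Counts were tested with edgeR 4.0.16 (R 4.3.3): filterByExpr by group, TMM scaling, and a quasi-likelihood model of all 12 libraries with 1 mean per group and Benjamini-Hochberg adjustment over all 17394 tested genes, with calls at an adjusted p below 0.05. The SE was taken as the size of the log2 fold change over the root of the F statistic. Counting error is part of that model and was not given separately; for the synthetase genes with the fewest counts, such as Pars2 in WT (88 to 115 counts), it exceeds the spread between libraries. CPM per kb used merged exon length. Alignments used blastn 2.17.0. The procedure was tested on simulated data. Alternatives were median-of-ratios scaling, library totals, no low-count filter, DESeq2 1.42.0, the groups of a comparison alone, sex as a covariate, males alone, the replicate number as a block and leaving out each library.

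The genes, the lists, the split by reported ATF4 targets and the rule for values were chosen with earlier results of these data known. Library values were given for the 6 highest and 4 lowest synthetase genes by log2 fold change in Apc against WT, the 3 highest and 3 lowest in Apc Eif3h against Apc and the 2 highest and 2 lowest in Apc Eif3h against WT, and for called genes where 5 or fewer were called. From each other list up to 3 called genes with the smallest p were named, or all of 5 or fewer.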

Additional observations from a re-analysis of the deposited data

Results flagged for a closer look

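Among 108 sets of 4 libraries (36 genes in 3 groups) 4 held a library far from the other 3, by Dixon's gap over the range at the 95% level, where chance gives about 1 in 20. Farsb was at 102.3 CPM in Apc Eif3h replicate 1, against 91.4 to 93.1 CPM in the others of its group. Vars2 was at 36.2 CPM in Apc Eif3h replicate 3, against 47.99 to 48.5 CPM. Fars2 was at 29.7 CPM in Apc replicate 3, against 32.04 to 32.07 CPM. Tars was at 76.4 CPM in WT replicate 3, against 72.9 to 73.3 CPM.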

How the results depend on the processing

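In Apc against WT, 17 of 18 cytosolic and 10 of 10 mitochondrial calls were made in every alternative, Sars being the exception. For Apc Eif3h against WT this held for 18 of 19 (not Nars) and 10 of 13 (not Ears2, Hars2 and Lars2), and in Apc Eif3h against Apc for 1 of 2 (Sars) and 0 of 3. No synthetase gene that was called changed sign. Of 864 single-gene values with a library left out, 50 moved across the threshold (40 lost the call, 10 gained it), and of 864 under other settings 36 did (24 and 12).

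With library totals only, genes called lower numbered 2393 in Apc against WT, and the medians were 0.95 (cytosolic) and 0.76 (mitochondrial). Against WT, Apc Eif3h had 3175, 1.08 and 1.0, with 0 mitochondrial genes lower. In Apc Eif3h against Apc 485 genes were called higher, with 1 cytosolic and 0 mitochondrial, and 49.8% of calls were higher in place of 60.6%. There, 306 genes were lower and 0 mitochondrial genes higher with no filter on low counts, 400 genes were higher and 259 lower in males only, and 1 mitochondrial gene was higher with sex as a covariate. The replicate block also left 1 mitochondrial gene higher there (Tars2), with 594 genes higher and 399 lower. Correlations of same-numbered libraries ran from -0.14 to 0.24, and those of differently numbered libraries from -0.31 to 0.31. These values do not show that replicate numbers pair the samples, and with so few libraries they cannot exclude it. Lars2 in Apc Eif3h against WT was not called, so 0 mitochondrial genes were lower, with the 2 groups alone, with sex as a covariate and in males only. DESeq2 called 15 mitochondrial ribosomal protein genes higher in Apc Eif3h against Apc, where edgeR called 7, and 10 amino acid response genes, where edgeR called 5, and it called 2 mitochondrial ribosomal protein genes lower in Apc against WT, where edgeR called 1. The cause of these changes was not tested.

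Leaving out 1 library in Apc Eif3h against Apc gave 242 to 1152 genes higher and 164 to 615 lower, 1 to 7 cytosolic and 0 to 4 mitochondrial genes higher, 0 to 1 cytosolic genes lower and a cytosolic median of 0.17 to 0.36. For Apc Eif3h against WT it gave 0 to 2 mitochondrial genes lower. Without Apc replicate 3 the lowest counts came up, and without Apc Eif3h replicate 3 the highest. By the length of the longest transcript, median levels per kb were 35.2, 30.4 and 19.96 CPM (cytosolic) and 9.97, 9.38 and 5.60 CPM (mitochondrial) in Apc Eif3h, Apc and WT.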
